A study of Mus musculus with 16 samples.

Results

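Microglia sorted from mice labelled IRF8KO were compared between postnatal day 14 (P14) and postnatal day 9 (P9), to describe how these cells changed over the second postnatal week. The libraries were taken by their labels, 3 of IRF8KO at P14 and 3 of IRF8KO at P9, which are 6 of the 16 libraries of the series. All genes were examined, and 18295 of 55536 had enough reads to be tested. Every library came from microglia of female mice, isolated without enzymes and sorted by flow cytometry, with no treatment stated. The 6 wild-type (WT) libraries of the same ages, 3 at P9 and 3 at P14, served for the test of whether a change differed between genotypes. The 4 adult libraries, 2 of each genotype at 3 months, gave levels and the genes that differ between adult and P14 WT libraries, and their titles carry a batch number of their own, so batch and the adult age cannot be told apart. The labels give neither strain, allele, sort markers nor litter. They speak of isolation from each brain without saying which animals the libraries share, so p-values measure the spread between these samples.

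Microglia are the macrophages of the brain parenchyma. They enter the brain before birth, multiply there in early postnatal life, then leave the cell cycle and take on the ramified form and surveying state of the adult cell. IRF8 belongs to the interferon regulatory factors, DNA-binding proteins on which the development and the activation of microglia and other myeloid cells depend. Cells that copy their DNA need the MCM helicase, clamp loaders, polymerases and nucleotide-making enzymes, whose genes are driven by E2F factors. Mitosis needs cyclin B, the Polo and Aurora kinases and the anaphase-promoting complex, whose genes commonly carry a cell cycle homology region (CHR) and CCAAT boxes in their promoters.

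Reads assigned to genes were 13.6 to 14.8 M in the P9 libraries labelled IRF8KO and 10.4 to 11.7 M in those of P14. Uniquely mapped reads outside genes rose from 8.31% to 13.1% at P9 to 21.03% to 23.2% at P14, and these ranges did not overlap. P14 library 3 stood apart from the other P14 libraries, with correlations of log2 CPM (reads of a gene scaled to a common library size) of 0.861 and 0.890 against 0.970 between the others. Genes with short exon length were higher in it (median difference 0.70 on the log2 scale over short genes, -0.04 over genes of middle length and -0.26 over long genes, in 3 groups of near equal size), and Apoe took 18.8% of its gene reads. Results that depend on this library are given without it as well. In bulk RNA, fewer cells of a type and less RNA per cell cannot be told apart.

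Irf8 was read in every library labelled IRF8KO. It stood at 1021, 1089 and 883 CPM at P9 and at 603, 682 and 894 CPM at P14, with library 3 of P14 inside the P9 range (log2 fold change -0.46 ± 0.32 SE, adjusted p = 0.34). Gene counts do not show which exons or allele the reads come from, so IRF8KO is used here as a label.

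From P9 to P14, 4337 of 18295 tested genes changed in libraries labelled IRF8KO, 23.7% of all (edgeR quasi-likelihood test, Benjamini-Hochberg adjusted p below 0.05). Genes that rose numbered 3363 (18.4%) and genes that fell 974 (5.32%). The 2 sets lay at different levels. Genes that rose went from a median of 0.0713 CPM to 2.95 CPM, 954 of them without a read at P9, and together held 3.32% of gene reads at P14. Genes that fell went from a median of 58.3 CPM to 25.8 CPM and from 11.2% to 5.77% of gene reads, and 97.5% of them code for proteins. Groups did not overlap for 40.2% of all tested genes. Without P14 library 3 the counts were 2725 higher and 1399 lower, and scaling to 35 pan-macrophage genes gave 4636 higher and 227 lower, so that 95.3% of calls were higher against 77.5% by the main scaling. That scaling put the median log2 fold change of all tested genes at 0.74, against 0.16 by the main one.

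**Figure D1:**
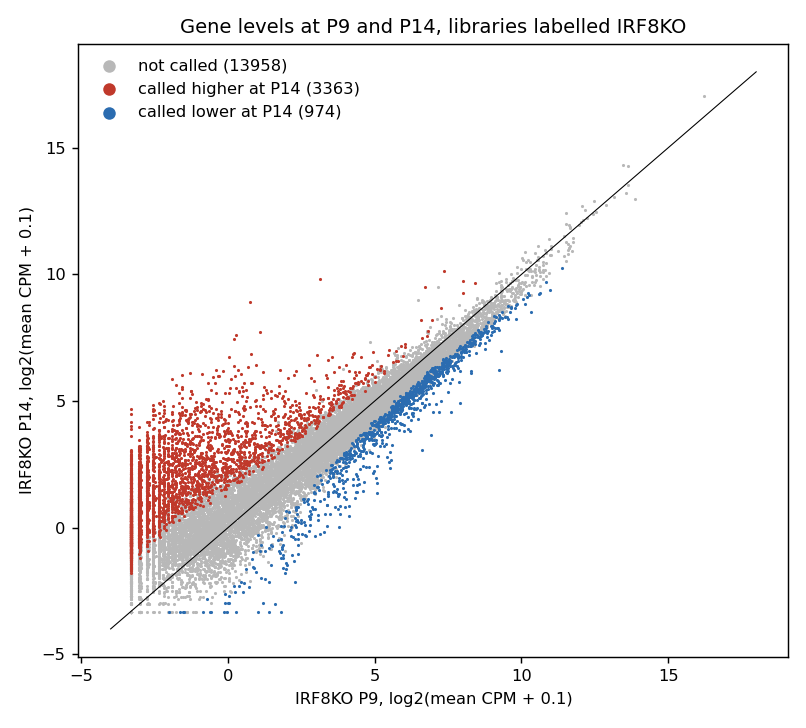
Mean CPM of each tested gene at P9 (x axis) and P14 (y axis) in libraries labelled IRF8KO, on a log2(CPM + 0.1) scale, 3 libraries a group; the line marks equal levels. The 3363 genes called higher gather at the low end of the P9 axis (median 0.0713 CPM at P9), and the 974 called lower at higher levels (median 58.3 CPM at P9).

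The genes of DNA replication fell together. Of 27 tested members of the list, 23 fell and 0 rose, with a median log2 fold change of -2.19, where the median over all tested genes was 0.16 and 5.32% of genes fell. Their summed level was 1865, 1760 and 1293 CPM in the P9 libraries and 322, 322 and 339 CPM in the P14 libraries. All 3 P14 libraries, library 3 included, thus lay close together and far below P9, and 23 members fell without library 3 too. Members that did not pass included Pola1 (-0.67), Prim1 (-0.66) and Ccne2 (-0.71), with adjusted p from 0.413 to 0.493.

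The MCM helicase unwinds DNA ahead of the replication fork. Mcm2 went from 227, 196 and 159 CPM to 24.9, 29.7 and 16.3 CPM (log2 fold change -3.04 ± 0.38 SE, adjusted p = 2.9e-05). Mcm5 went from 277, 279 and 164 CPM to 25.1, 25.9 and 39.4 CPM (-2.995 ± 0.42, adjusted p = 6.81e-05). Mcm3 and Mcm6 fell by 2.25 and 2.62 on the log2 scale, and Mcm4 and Mcm7 by 2.30 and 1.90, so all 6 subunits passed. Pole, the catalytic subunit of the leading-strand polymerase, went from 18.6, 17.02 and 11.3 CPM to 1.02, 1.33 and 2.63 CPM (-3.26 ± 0.48, adjusted p = 0.000111). Uhrf1, which keeps DNA methylation through replication, went from 125, 109 and 59.2 CPM to 5.18, 8.20 and 11.5 CPM (-3.57 ± 0.53, adjusted p = 0.00012). Dtl, part of a ubiquitin ligase that acts on the replication clamp, had a fall of 3.92 on the log2 scale (12.1, 15.4 and 13.9 CPM to 0.802, 0.859 and 1.08 CPM). Pcna, the clamp itself, went from 26.7, 20.8 and 25.05 CPM to 8.10, 5.85 and 1.80 CPM (-2.19 ± 0.43, adjusted p = 0.00117).

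Promoters are shown for 2 of these helicase genes because E2F-type motifs (TTTCCCGC or TTTGGCGC, either strand) were more frequent in this list than elsewhere. Windows of 300 bases around start sites (RefSeq, GRCm38.p6) were found for 19 of the 23 genes that fell, 21 windows in all, and 38.1% of the windows held the motif, against 1.57% of all 32841 windows and 2.65% of the 15057 windows of tested genes. Of the 25 windows of the whole list, fallen genes or not, 36% held it, a share close to that of the genes that fell. The 150 bases before the start are given 5′ to 3′ on the gene's strand, with the motif in capitals. Mcm5 lies at chr8:75109359-75109508 on the plus strand and Mcm6 at chr1:128359706-128359855 on the minus strand. A match is a description of the letters and not of binding.
Mcm5: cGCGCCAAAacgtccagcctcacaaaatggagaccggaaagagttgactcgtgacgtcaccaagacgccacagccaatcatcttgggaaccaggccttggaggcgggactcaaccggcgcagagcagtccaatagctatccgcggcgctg
Mcm6: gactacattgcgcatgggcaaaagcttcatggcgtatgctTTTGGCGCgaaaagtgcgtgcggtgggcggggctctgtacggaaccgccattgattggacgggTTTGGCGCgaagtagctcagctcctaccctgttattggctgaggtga

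Genes of mitosis fell as well. Of 28 tested, 19 fell and 0 rose, with a median log2 fold change of -2.37, and the summed level went from 590, 521 and 478 CPM to 98.7, 102 and 122 CPM. Without P14 library 3, 18 fell. Ube2c, the ubiquitin-conjugating enzyme of the anaphase-promoting complex, went from 21.8, 18.8 and 10.9 CPM to 0.875, 1.01 and 3.23 CPM (-3.37 ± 0.50, adjusted p = 0.000124). Plk1, the Polo kinase, went from 30.9, 25.2 and 16.6 CPM to 2.55, 2.11 and 3.23 CPM (-3.21 ± 0.49, adjusted p = 0.000143). Birc5, the survivin subunit of the chromosomal passenger complex, and Bub1b, a spindle checkpoint kinase, fell by 2.94 and 2.88 on the log2 scale. Ccnb1, cyclin B1, had a fall of 3.05, and Cdc20, an activator of the anaphase-promoting complex, of 2.41.

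Outside the list, Cdca3, a trigger of mitotic entry, went from 38.3, 40.9 and 22.9 CPM to 2.26, 1.64 and 3.47 CPM (-3.80 ± 0.50, adjusted p = 4.89e-05). Spc24, a kinetochore subunit, had a fall of 3.37 on the log2 scale. Each P14 value of Cdca3 and Spc24 lay below each P9 value. Mki67, the usual proliferation marker, was at 8.33, 8.92 and 21.2 CPM against 6.42, 3.83 and 1.44 CPM and narrowly missed the threshold (-1.70 ± 0.61, adjusted p = 0.0502). It passed in 4 of 18 alternatives, among them without P14 library 1 (-2.17, adjusted p = 0.0338) and DESeq2 (-1.56, adjusted p = 0.0395), and its adjusted p ran from 0.0165 to 0.444 over them. Nusap1 (0.21) and Cenpf (-0.15) were the list members nearest to no change, with adjusted p = 0.891 and 0.914.

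Promoters of Ube2c and Cdc20 are shown because both hold the CHR (TTTGAA) and CCAAT motifs, either strand. Windows were found for 14 of the 19 mitosis genes that fell, 15 windows in all. Of these, 80% held a CHR and 86.7% a CCAAT box, against 17.9% and 37.4% of all windows and 12.3% and 37.2% of the windows of tested genes. The E2F-type motif was in 0 of the 15. Of the 25 windows of the whole list, fallen genes or not, 76% held a CHR and 88% a CCAAT box. These shares are close to those of the genes that fell. The bases are the 150 before the start, as above, with both motifs in capitals. Ube2c lies at chr2:164769779-164769928 on the plus strand and Cdc20 at chr4:118437344-118437493 on the minus strand (GRCm38.p6).
Ube2c: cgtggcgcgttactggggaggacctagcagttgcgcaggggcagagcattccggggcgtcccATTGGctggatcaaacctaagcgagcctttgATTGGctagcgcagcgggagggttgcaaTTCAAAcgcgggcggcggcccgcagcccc
Cdc20: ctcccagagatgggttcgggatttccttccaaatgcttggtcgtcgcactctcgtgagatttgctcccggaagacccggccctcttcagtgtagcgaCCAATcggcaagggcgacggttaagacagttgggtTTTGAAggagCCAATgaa

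The fall was steeper than that of WT microglia for part of these genes. In WT libraries the replication list summed to 1936, 2476 and 2152 CPM at P9 and to 1295, 1573 and 1024 CPM at P14, and the mitosis list to 606, 630 and 536 CPM and to 332, 354 and 284 CPM. At P9 the mitosis sums of the genotypes overlapped. The replication sums of IRF8KO (1293 to 1865 CPM) already lay below those of WT (1936 to 2476 CPM) at that age. At P14 every library labelled IRF8KO lay far below every WT library in both lists. No member of either list passed in WT (median log2 fold change -0.95 for replication and -1.18 for mitosis). The change differed between genotypes for 8 replication and 7 mitosis genes, each more negative in IRF8KO, where 2.86% of all tested genes were. For Mcm2 the difference was -2.40 on the log2 scale (adjusted p = 0.0019) and for Ube2c -2.47 (adjusted p = 0.0109). The replication count was 13 without P14 library 3 of IRF8KO and ranged from 3 to 13 over fits that left out 1 library, and the mitosis count from 2 to 7. With pan-macrophage scaling these counts were 1 and 0, so the difference in steepness, unlike the fall itself (19 and 15 genes), depends on the scaling.

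In adult libraries labelled IRF8KO the replication list stood at 229 and 375 CPM, on either side of the P14 values, and the mitosis list at 50.2 and 71.3 CPM, below each P14 library. Adult WT libraries stood at 255 and 450 CPM and at 25.9 and 35.0 CPM.

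Cdca7, which encodes a cell cycle protein involved in DNA methylation, changed differently in the genotypes. In IRF8KO it went from 19.7, 17.02 and 14.8 CPM to 1.97, 0.781 and 1.08 CPM (-3.73 ± 0.47, adjusted p = 2.98e-05). In WT it stood at 42.4, 57.7 and 37.7 CPM at P9 and at 52.3, 44.6 and 35.4 CPM at P14. The groups of IRF8KO did not overlap and those of WT did, and the difference of the changes was -3.67 (adjusted p = 0.000236).

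**Figure D2:**
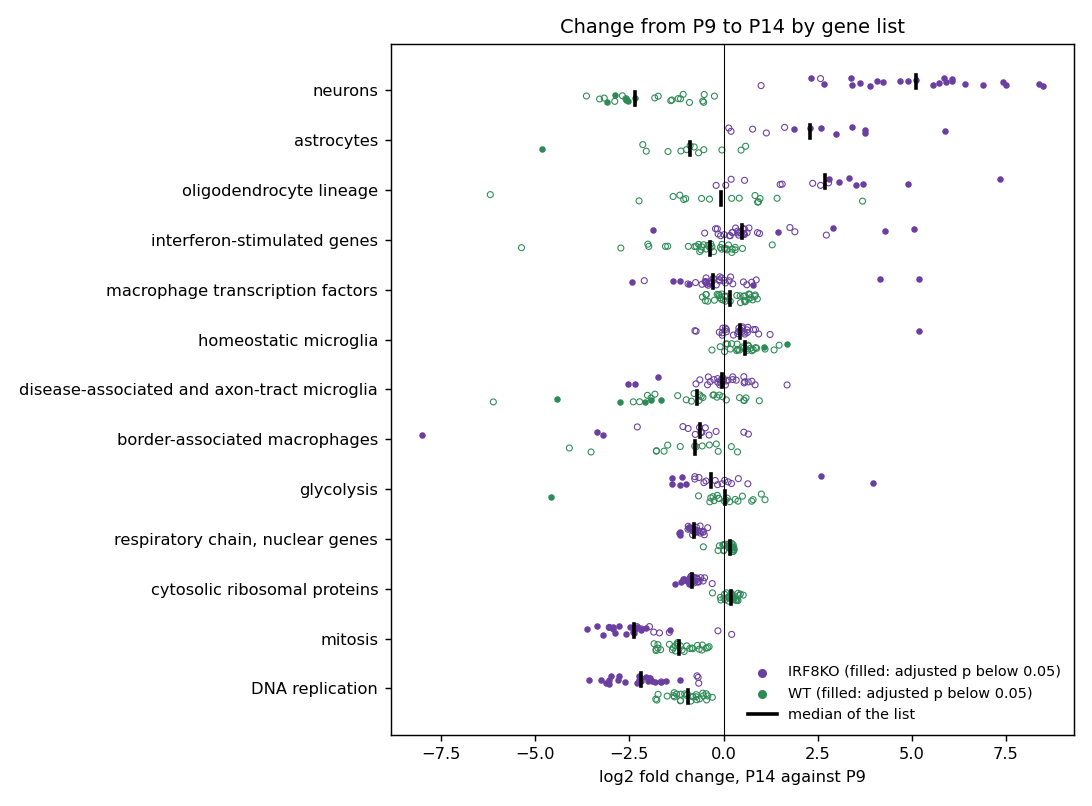
Log2 fold change from P9 to P14 of each tested member of 13 gene lists, in IRF8KO (purple) and WT (green); filled points passed an adjusted p of 0.05 and bars mark the list's median. The DNA replication and mitosis lists sit left of 0 in IRF8KO (medians -2.19 and -2.37) and the neuron list right of 0 (median 5.12), while WT medians for the same 3 lists are -0.95, -1.18 and -2.36.

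Igfbp4 had the steepest fall among abundant genes (at least 500 CPM in the higher group). It encodes a secreted binding protein that holds insulin-like growth factors. It went from 633, 775 and 419 CPM to 53.0, 90.8 and 80.9 CPM (-3.02 ± 0.40, adjusted p = 4.45e-05). WT microglia kept it at 1070, 1511 and 1438 CPM at P9 and 1339, 1497 and 1048 CPM at P14, and the changes differed by -2.97 (adjusted p = 0.000512). In adults it was low in both genotypes, at 16.8 and 25.1 CPM in IRF8KO and 45.7 and 136 CPM in WT.

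Lgals1, which encodes galectin-1, went from 612, 886 and 413 CPM to 62.4, 105 and 207 CPM (-2.35 ± 0.40, adjusted p = 0.000413). WT libraries held 16.6 to 25.7 CPM at P9 and 4.12 to 6.68 CPM at P14, with a fall that also passed (-1.93, adjusted p = 0.0159). The genotypes did not differ in this change beyond their error (-0.42, adjusted p = 0.63). Dok2, an adaptor that restrains signalling from tyrosine kinases in myeloid cells, went from 135, 161 and 64.8 CPM to 10.9, 8.98 and 17.5 CPM (-3.28 ± 0.39, adjusted p = 2.22e-05). It fell in WT as well (20.1, 34.6 and 21.02 CPM to 6.78, 7.81 and 5.47 CPM), and the difference did not pass (-1.36, adjusted p = 0.0726).

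A few markers of border-associated macrophages fell, as did 1 marker of monocytes, Fn1. Border-associated macrophages live in the meninges and perivascular spaces. Of 15 tested markers 3 fell and 0 rose, with a median of -0.64, beside 5.32% and 18.4% of all tested genes. The list summed to 7615 to 10082 CPM at P9 and 5389 to 6345 CPM at P14. F13a1, coagulation factor XIII A, went from 45.1, 29.0 and 27.2 CPM to 3.65, 4.92 and 1.20 CPM (-3.35 ± 0.77, adjusted p = 0.00436). Lyve1, a hyaluronan receptor, went from 107 reads in the P9 group to 0 reads at P14, at least 29.8-fold lower with 3 reads set as the floor of the P14 group (adjusted p = 0.012, and 0.238 with DESeq2). Clec10a, a galactose-binding lectin, was at 5.17, 3.52 and 1.97 CPM and then at 0.219, 0.546 and 0.359 CPM (adjusted p = 0.0138, and 0.0736 without P9 library 1 and 0.0585 without P14 library 1).

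Fn1, fibronectin, stands on the list of monocyte markers and is also made by other macrophages. It went from 38.8, 53.7 and 43.4 CPM to 7.29, 4.45 and 3.47 CPM (-3.15 ± 0.53, adjusted p = 0.00037). The 6 tested monocyte markers summed to 52.7 to 64.6 CPM at P9 and to 10.3 to 15.4 CPM at P14, with 1 falling (Fn1) and 1 rising (Vcan, 2.78, adjusted p = 0.0493). Fn1 itself made up most of that sum at P9. WT libraries held 2.02, 1.97 and 2.45 CPM of Fn1 at P9.

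Disease-associated and axon-tract microglia are states of activated or developing microglia. Of 30 tested genes of these states 3 fell and 0 rose, with a median of -0.03, beside 5.32% and 18.4% of all tested genes. That balance depended on the fit, since 5 rose and 2 fell with pan-macrophage scaling, and 7 rose and 2 fell with the share of reads outside genes as a covariate. Those that fell were Lgals1, Vim and Spp1. Vim, the intermediate filament vimentin, went from 15.0, 14.1 and 10.98 CPM to 2.99, 3.12 and 0.718 CPM (-2.52 ± 0.57, adjusted p = 0.00347). Spp1, osteopontin, went from 28.8, 20.4 and 45.1 CPM to 13.1, 12.1 and 2.99 CPM (-1.73 ± 0.53, adjusted p = 0.0231). Its call was lost without P9 library 1 (adjusted p = 0.0922), P9 library 3 (0.148) or P14 library 3 (0.0598). Apoe, a carrier of cholesterol and other lipids, was at 67815, 98955 and 61277 CPM at P9 and at 74502, 98349 and 234520 CPM at P14, overlapping except for library 3 (0.84 ± 0.48, adjusted p = 0.228). It passed in 4 of 18 alternatives, among them library-size scaling (0.89, adjusted p = 0.0114), pan-macrophage scaling (1.5, adjusted p = 0.0133) and no filter (0.86, adjusted p = 0.00608), and its adjusted p ran from 0.00517 to 0.798 over them.

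**Figure D3:**
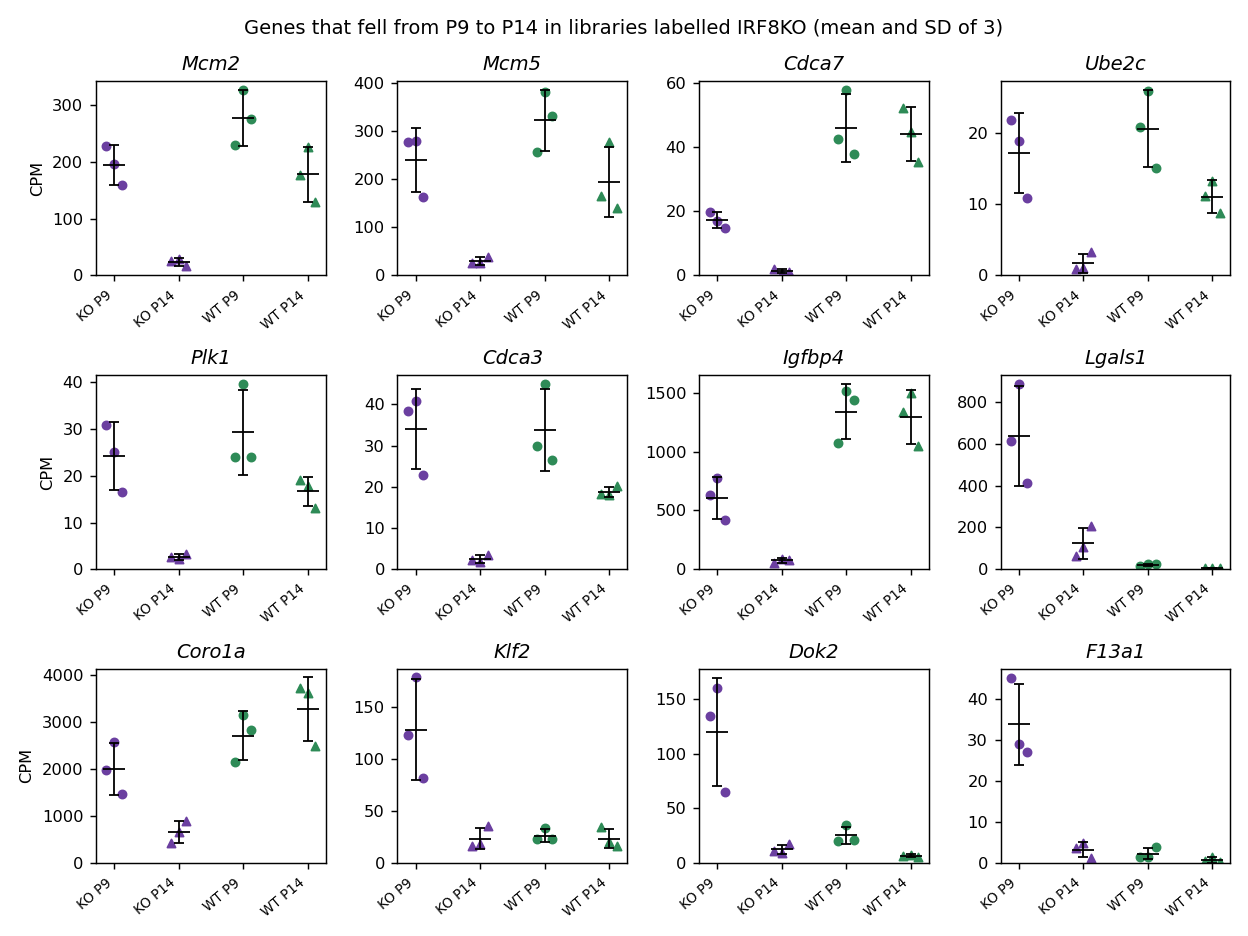
CPM of 12 genes that fell from P9 to P14 in libraries labelled IRF8KO, 1 point per library, with the mean and SD of 3 libraries; purple is IRF8KO and green WT, circles are P9 and triangles P14, and each panel has its own axis from 0. In each panel the 3 IRF8KO values at P14 lie below the 3 at P9; WT values of Cdca7, Igfbp4 and Coro1a overlap between the ages.

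Most markers of the resident microglial state did not pass. Of 28 tested homeostatic genes 1 rose and 0 fell, with a median of 0.44, beside 18.4% and 5.32% of all tested genes. Tmem119, a surface marker of microglia, was at 2603, 3617 and 2506 CPM and then at 3489, 5171 and 7983 CPM (0.93 ± 0.42, adjusted p = 0.123). It passed in 6 of 18 alternatives, among them library-size scaling (1.03, adjusted p = 0.00208), pan-macrophage scaling (1.56, adjusted p = 0.00408) and DESeq2 (1.04, adjusted p = 0.0445). Its adjusted p ran from 0.000743 to 0.544 over the alternatives, and its sign turned with the neuron list as a covariate (-1.14). Cx3cr1, the fractalkine receptor, was at 1696, 1496 and 1120 CPM and then at 1120, 957 and 525 CPM (-0.73 ± 0.34, adjusted p = 0.134). P2ry12, the purinergic receptor, was scattered at both ages (140, 80.3 and 300 CPM, then 365, 286 and 50.1 CPM). With pan-macrophage scaling 13 homeostatic genes rose, against 0 to 2 over fits that left out 1 library, and with the share of reads outside genes as a covariate 13 rose and 2 fell.

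Sall1 was the homeostatic gene that rose, from a level close to none. It encodes a zinc-finger factor needed for the resident identity of microglia. No read was found in the 3 P9 libraries, and the P14 libraries held 0.219, 0.312 and 0.598 CPM, 12 reads in all, at least 5.07-fold higher with 3 reads as the floor of the P9 group (adjusted p = 0.0285). WT libraries held 148 to 188 CPM at P9 and 125 to 235 CPM at P14. The call was lost in fits without P9 library 1, 2 or 3 (adjusted p = 0.0689, 0.0642 and 0.061) or without P14 library 3 (0.0814). This defining transcript of microglia was thus at or near 0 in libraries labelled IRF8KO at both ages.

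Of 35 tested transcription factors of macrophages 3 rose and 4 fell, beside 18.4% and 5.32% of all tested genes, with a median of -0.28. Over fits that left out 1 library 0 to 3 rose and 1 to 4 fell, and with pan-macrophage scaling 5 rose and 1 fell. Klf2, a Krüppel-like factor that restrains inflammatory activation, went from 123, 178 and 81.6 CPM to 16.3, 18.7 and 35.5 CPM (-2.44 ± 0.40, adjusted p = 0.000297). WT libraries were at 22.6, 33.7 and 22.95 CPM at P9 and at 34.3, 20.002 and 16.3 CPM at P14, and the changes differed by -2.27 (adjusted p = 0.00576). The high value was thus that of P9 in IRF8KO. Klf4, a related factor, had 2 reads in the P9 group and 37 at P14, a ratio of 21.4 with a 95% counting interval of 5.52 to 183 (adjusted p = 0.0131, and 0.0517 without P9 library 2).

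Ier3, an immediate early gene that the handling of cells can induce, went from 101, 113 and 66.8 CPM to 17.4, 21.5 and 35.9 CPM (-1.91 ± 0.44, adjusted p = 0.0039). The list of 18 dissociation and immediate early genes had 2 that fell and 0 that rose, beside 5.32% and 18.4% of all tested genes. It summed to 680 to 990 CPM at P9 and to 429 to 725 CPM at P14. Whether handling differed between these ages was not tested.

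Coro1a, Flna, Cotl1 and Cfl1, which encode proteins that bind actin, were among the abundant genes that fell, and no list of such genes was tested. Coro1a, an actin regulator of leukocytes, went from 1981, 2565 and 1463 CPM to 435, 663 and 893 CPM (-1.59 ± 0.41, adjusted p = 0.00872). In WT it stood at 2146, 3142 and 2831 CPM and then at 3705, 3613 and 2476 CPM, and the changes differed by -1.86 (adjusted p = 0.0262, lost in 8 of 12 fits that left out 1 library). Flna, filamin A, went from 1368, 1486 and 984 CPM to 408, 490.4 and 207 CPM (-1.80 ± 0.34, adjusted p = 0.000897). Cotl1, a coactosin that binds filamentous actin, fell by 1.59 and Cfl1, cofilin, by 1.30 on the log2 scale (adjusted p = 0.00788 and 0.00547). Cfl1 missed the threshold with pan-macrophage scaling (-0.67, adjusted p = 0.0724). With the share of reads outside genes as a covariate Coro1a (adjusted p = 0.662), Cotl1 (0.589) and Cfl1 (0.248) missed it, and Flna passed.

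Genes of protein synthesis and energy metabolism leaned lower, but how many passed depended on the fit. Of 30 cytosolic ribosomal protein genes 8 fell and 0 rose (median -0.84), of 26 nuclear genes of the respiratory chain 5 fell and 0 rose (median -0.77), and of 20 glycolytic genes 5 fell and 2 rose (median -0.34). Over all tested genes 5.32% fell and 18.4% rose. The ribosomal list summed to 10855, 14749 and 8878 CPM at P9 and to 4452, 6143 and 9268 CPM at P14, so only library 3 reached the P9 range. Without P14 library 3, 23 ribosomal, 22 respiratory and 6 glycolytic genes fell. Without P9 library 1 the counts were 1, 0 and 2, without P9 library 2 they were 3, 0 and 1, without P14 library 1 they were 2, 0 and 2, and without P14 library 2 they were 4, 0 and 2. With pan-macrophage scaling, or with the share of reads outside genes as a covariate, 0 fell in any of the 3 lists.

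Eif4a1, the helicase of translation initiation, went from 563, 745 and 509 CPM to 190.3, 249.9 and 223 CPM (-1.45 ± 0.29, adjusted p = 0.00134). Gapdh went from 1622, 1966 and 1175 CPM to 467, 652 and 741 CPM (-1.36 ± 0.36, adjusted p = 0.0101). Rps2, a protein of the small ribosomal subunit, went from 673, 1033 and 505 CPM to 227, 333 and 345 CPM (-1.29 ± 0.34, adjusted p = 0.0099, and 0.0698 without P9 library 2). Eif4a1, Gapdh and Rps2 have processed pseudogenes that can take some of their reads, which leaves their levels uncertain.

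Neuronal genes rose together. Of 25 tested neuronal markers 23 rose and 0 fell, with a median of 5.12, where 18.4% of all tested genes rose. The list summed to 27.6, 21.4 and 27.1 CPM at P9 and to 284, 441 and 1233 CPM at P14, so library 3 held the most and the others were far above P9 too. Without library 3, 21 rose. Gria2, a glutamate receptor subunit, went from 1.29, 0.327 and 1.69 CPM to 77.2, 117 and 382 CPM (7.41 ± 0.73, adjusted p = 8.32e-06). Syt1, the calcium sensor of synaptic vesicles, went from 0.933, 0.409 and 1.13 CPM to 18.7, 25.7 and 74.4 CPM (5.55 ± 0.58). Rbfox3, the splicing factor known as NeuN, went from 1.58, 0.90 and 2.04 CPM to 31.1, 57.5 and 154 CPM (5.72 ± 0.60).

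The genes with the largest rises to at least 10 CPM include several of synapses and of the neuronal membrane. Gdap1, an outer mitochondrial membrane protein of neurons, had 0 reads in the P9 group and 5.18, 10.4 and 37.9 CPM at P14, at least 239.95-fold higher with 3 reads as the floor of the P9 group. Itga3 and Hipk4 also had 0 reads at P9 and were at least 200.3-fold and 163.7-fold higher. Kcnc1, a fast potassium channel, went from 0.359, 0 and 0.141 CPM to 23.5, 38.9 and 112 CPM (8.32 ± 0.92, adjusted p = 1.23e-05). Unc13c, a vesicle-priming protein, had 3 reads at P9 and 768 at P14, a ratio of 296 (95% counting interval 101 to 1440). Cacna1g, a T-type calcium channel, and Lgi3, a secreted synaptic protein, had 2 reads each at P9 and 560 and 574 at P14.

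Markers of astrocytes and of the oligodendrocyte lineage moved with the neuronal genes. Of 13 astrocyte genes 8 rose and 0 fell (median 2.30), and of 16 genes of the oligodendrocyte lineage 7 rose and 0 fell (median 2.68), beside 18.4% of all tested genes that rose. Of 11 genes of endothelial and mural cells 3 rose and 0 fell, but their summed level overlapped between the ages (12.2 to 17.02 CPM at P9 and 10.7 to 21.1 CPM at P14). The astrocyte list summed to 57.5, 86.5 and 55.9 CPM and then to 141, 203 and 462 CPM. Slc1a2, the main astrocytic glutamate transporter, went from 1.36, 2.21 and 2.53 CPM to 17.6, 21.8 and 44.0 CPM (3.76 ± 0.55, adjusted p = 0.000102). Slc1a3, the other astrocytic glutamate transporter, went from 2.66, 4.58 and 4.78 CPM to 20.1, 17.9 and 21.5 CPM (2.30 ± 0.39). Unlike the list sum, Slc1a3 was level over the P14 libraries. In WT it stood at 32.8, 27.6 and 34.7 CPM at P9 and at 33.1, 38.1 and 60.1 CPM at P14. The astrocyte list had a median log2 fold change of -0.89 in WT.

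Myelin genes rose with them. Mbp, myelin basic protein, went from 98.1, 111 and 103 CPM to 386, 534 and 1242 CPM (2.79 ± 0.39, adjusted p = 7.34e-05). Mobp, also of myelin, rose by 3.34 on the log2 scale. Mbp transcripts in WT libraries stood at 69.7, 68.3 and 73.9 CPM at P9 and 172, 91.6 and 133 CPM at P14. The erythroid list had no member that passed, and its sum was uneven within the groups (797, 0.409 and 53.3 CPM, then 669, 2169 and 1711 CPM).

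Long noncoding RNAs that stay in the nucleus were among the abundant genes that rose. Meg3, an imprinted RNA of neurons, went from 9.76, 3.19 and 12.9 CPM to 489, 693 and 1534 CPM (6.71 ± 0.65, adjusted p = 8.32e-06). Malat1, a nuclear RNA of most cell types, went from 154, 84.1 and 257 CPM to 733, 905 and 1715 CPM (2.76 ± 0.47, adjusted p = 0.000409). Snhg11, another neuronal noncoding RNA, went from 1.65, 0.409 and 2.67 CPM to 248, 281 and 897 CPM (8.21 ± 0.84). Srrm2, a splicing scaffold protein of nuclear speckles, went from 214, 219.8 and 337 CPM to 586, 659.6 and 1310 CPM (1.73 ± 0.33, adjusted p = 0.000875).

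The share of reads outside genes and the markers of neurons, astrocytes and oligodendrocytes rose together with the 3363 genes, and their part in these rises was not tested. Of the genes that rose, 2538 (75.5%) were also higher in adult than in P14 WT libraries, where 19.7% of all tested genes were, and they made up 70.6% of that set. Adult libraries of both genotypes also held more of the neuron list than P14 WT libraries (32.9 to 54.6 CPM). The adult sums were 834 and 680 CPM in IRF8KO and 460 and 1032 CPM in WT. They overlapped with those of IRF8KO at P14 (284, 441 and 1233 CPM). Of the genes that fell, 433 (44.5%) were lower in adult than in P14 WT libraries, where 7.40% of all tested genes were, and they made up 32.0% of that set.

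**Figure D4:**
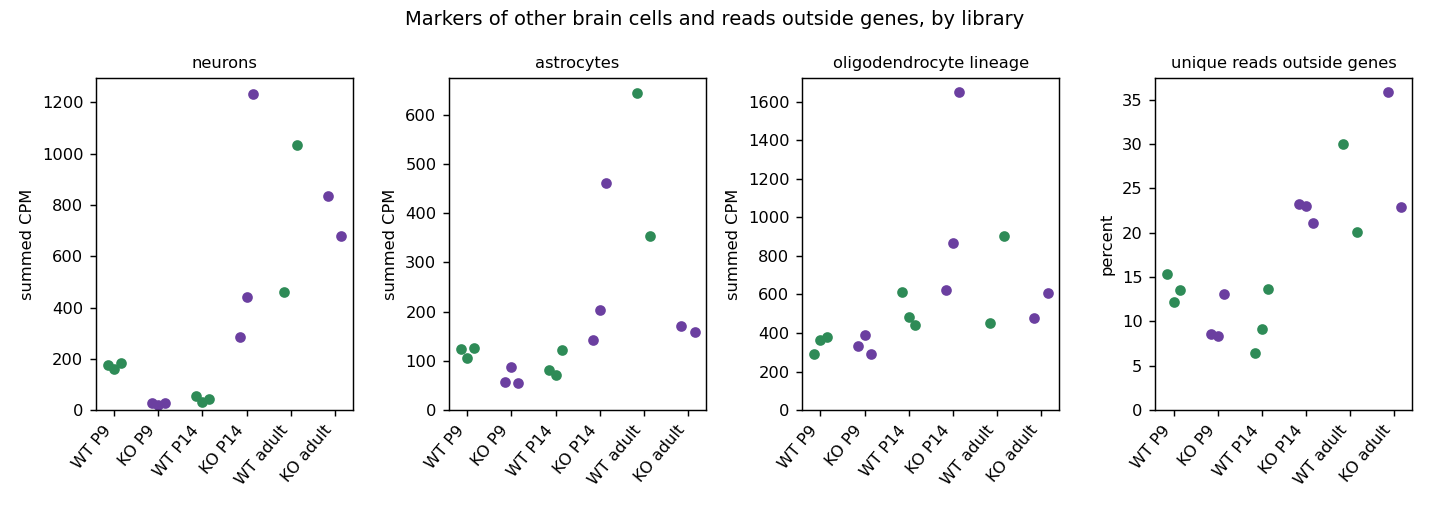
Summed CPM of the neuron, astrocyte and oligodendrocyte lineage lists and the percent of uniquely mapped reads outside genes, 1 point per library, for WT (green) and IRF8KO (purple, KO on the axis) at 3 ages. Neuron sums of IRF8KO P14 (284, 441 and 1233 CPM) exceed those of IRF8KO P9 (21.4 to 27.6 CPM) and WT P14 (32.9 to 54.6 CPM), and 21.03% to 23.2% of unique reads in IRF8KO P14 fall outside genes.

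Of 17 tested genes of TGF-beta signalling, a pathway that maintains microglial identity, 3 rose and 1 fell. Both shares are close to the 18.4% and 5.32% of all tested genes, and the 3 genes that rose did so at low levels. Tgfbr3, a co-receptor, had 1 read at P9 and was at 1.68, 1.01 and 4.91 CPM at P14. Tgfb2, a ligand, had 0 reads and then 18, at least 7.89-fold higher with 3 reads as the floor of the P9 group. Itgb8, the integrin subunit that activates the ligand, had 1 read and then 36. These 3 genes are also made by neurons or astrocytes, whose markers rose in the same libraries, and the part of those cells was not tested. In WT, Tgfbr3 and Tgfb2 fell to 0 reads at P14.

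Flt3, a cytokine receptor of dendritic cell precursors, had 2 reads in the P9 group and 342 at P14 (5.98, 8.90 and 17.5 CPM), a ratio of 198 (95% counting interval 54.4 to 1641). Of 7 tested dendritic cell markers 1 rose (Flt3) and 0 fell, with a median of 0.18, beside 18.4% and 5.32% of all tested genes. Pfkp, the platelet form of phosphofructokinase, went from 2.87, 1.31 and 3.73 CPM to 27.3, 30.1 and 68.3 CPM (3.98 ± 0.50, adjusted p = 3.05e-05), and Aldoc, the brain form of aldolase and an astrocyte marker, from 18.95, 22.5 and 15.9 CPM to 40.5, 67.8 and 236 CPM (2.58 ± 0.50). These were the 2 glycolytic genes that rose. Flt3, Pfkp and Aldoc were each highest in P14 library 3, as the neuron list was. The cells these transcripts came from were not tested.

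Of 34 tested interferon-stimulated genes 4 rose and 1 fell, with a median of 0.49, and the share that rose lies below the 18.4% of all tested genes. Mx1, a dynamin-like antiviral GTPase, went from 0.359, 0 and 0 CPM to 4.45, 0.781 and 2.51 CPM (4.29 ± 0.95, adjusted p = 0.00307), and WT libraries held 2.88 to 4.60 CPM at both ages. Ifit3 was at 15.7, 8.34 and 9.78 CPM and then at 51.4, 17.02 and 23.9 CPM (1.45 ± 0.47, adjusted p = 0.033). Ifit2 and the chemokine Cxcl10 rose mainly in P14 library 1, at 28.0, 7.57 and 2.27 CPM and at 2.84, 0.468 and 0 CPM.

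These 3 calls were not stable, and Ifit3 shares reads with its near-identical neighbour Ifit3b. Without P14 library 1 the adjusted p was 0.214 for Ifit3, 0.274 for Ifit2 and 0.209 for Cxcl10. Without P9 library 2 it was 0.122, 0.127 and 0.0738. Ifit3 and Cxcl10 were also lost without P9 library 3 (0.0716 and 0.0604) and Ifit2 without P9 library 1 (0.107). Ifi27l2a, an interferon-induced protein of mitochondria, went the other way, from 103, 134 and 76.0 CPM to 13.9, 22.9 and 48.8 CPM (-1.88 ± 0.46, adjusted p = 0.00617).

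MHC class I (15 genes tested), complement (15) and inflammatory cytokines and sensors (20) had 0 members that rose or fell, with medians of -0.17, 0.01 and 0.20. Of 31 lysosomal genes 1 rose and 0 fell, and of 11 MHC class II genes 1 rose and 0 fell. Over all tested genes 18.4% rose and 5.32% fell.

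Hs3st2, a heparan sulfate sulfotransferase, moved in opposite directions in the genotypes. In IRF8KO it went from 28.4, 45.7 and 19.4 CPM to 8.83, 10.8 and 13.5 CPM (-1.50 ± 0.41, adjusted p = 0.0126). In WT it went from 2.61, 3.04 and 5.57 CPM to 31.7, 23.3 and 22.4 CPM (2.78, adjusted p = 0.00492). The difference of -4.28 had an adjusted p of 4.83e-05. The fall in IRF8KO was lost without P9 library 2 (adjusted p = 0.0841) or P14 library 1 (0.0522). It was also lost with pan-macrophage scaling (-0.876, adjusted p = 0.118). The same held with the share of reads outside genes or the neuron list as a covariate. The difference between genotypes passed in each of the 22 fits outside those with a covariate.

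Over all tested genes, the change from P9 to P14 differed between genotypes for 3857 genes (21.1%), 3334 more positive in IRF8KO (18.2%) and 523 more negative (2.86%). In WT alone 785 genes changed (4.29%), 85 higher and 700 lower. Of the 3363 genes that rose in IRF8KO, 2879 differed from WT in that direction, and of the 974 that fell, 308 did. The neuron list fell in WT from 159 to 185 CPM to 32.9 to 54.6 CPM while it rose in IRF8KO, so the difference for such genes came from both genotypes. For Gria2 the log2 fold changes were 7.41 in IRF8KO and -3.09 in WT (difference 10.50, adjusted p = 1.56e-06).

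**Figure D5:**
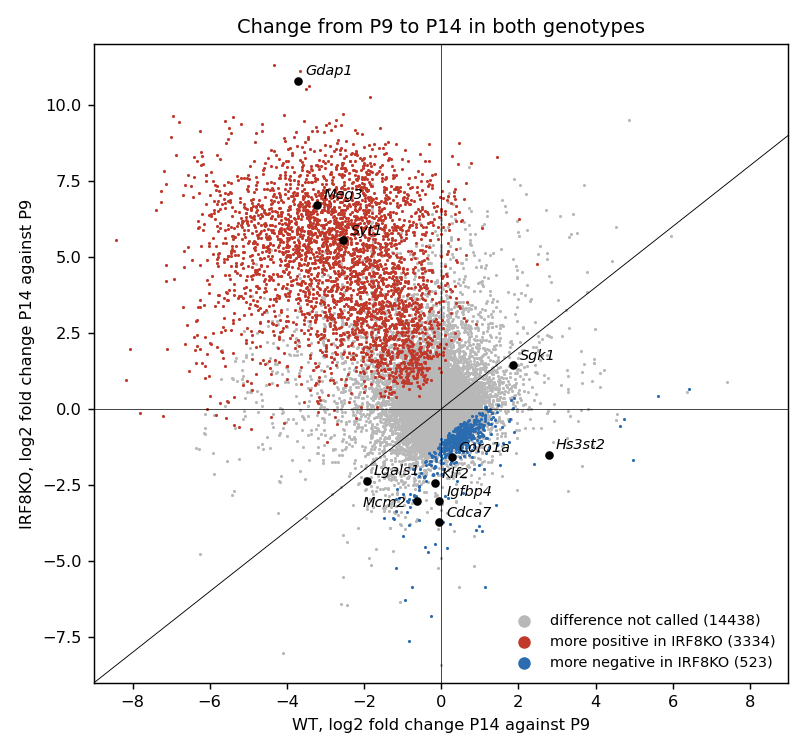
Log2 fold change from P9 to P14 of each tested gene in WT (x axis) and IRF8KO (y axis); colours mark genes whose change differed between genotypes, and the diagonal marks equal change. The 3334 genes more positive in IRF8KO spread over the upper left, where the neuronal genes Gdap1, Meg3 and Syt1 lie, and the 523 more negative ones, with Mcm2, Igfbp4, Cdca7 and Hs3st2 among them, lie below the diagonal.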

How the data were processed

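Total RNA of sorted microglia was made into cDNA with SMART-Seq v4 (15 cycles) and into Nextera XT libraries from 1 ng of cDNA, per the labels' protocols. The submitters' processing notes name bcl2fastq, STAR 2.5.2b, Picard 2.17.11, Subread and featureCounts on mm10. The deposited values are whole read counts per gene, and the tables have the layout of STAR's gene counts. The unstranded counts were used, since the library type keeps no strand, and the 4 entries that name no gene were left out (21.9% to 47.0% of reads). Depth was 9.98 to 14.8 M gene reads per library.

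Counts were scaled by TMM, 18295 genes passed filterByExpr, and a quasi-likelihood fit of 6 groups over 16 libraries was tested with edgeR 4.0.16 (limma 3.58.1, DESeq2 1.42.0 and R 4.3.3 for alternatives), with Benjamini-Hochberg adjustment at 0.05. The interaction is the change in IRF8KO minus that in WT. CPM use TMM-scaled sizes, except for the sums of olfactory and vomeronasal receptor genes. On simulated counts for IRF8KO P14 against P9 (18295 genes), 88% of 100 genes changed 8-fold and 59% of 100 changed 4-fold were recovered. Unchanged genes that were called numbered 12, or 7.55% of calls. The changed genes were drawn from those above a set level, so recovery of genes almost without reads at P9 was not measured. As many genes were raised as lowered, so a mostly upward shift, as among the real calls, was not simulated. Counting intervals (95%) and the floor of 3 reads over a group cover counting error only. Replicate numbers were not treated as pairs, since the labels do not say that they are.

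Genes are named by rule, namely the 10 largest called changes each way with at least 10 CPM and at least 500 CPM in the higher group, up to 4 called members of each of 33 lists, and 6 interaction genes each way. From these a selection was taken. Gene members and lists were chosen with earlier results of these data known. Gene positions came from GENCODE M21 and promoters from RefSeq (GRCm38.p6). Alternatives covered scaling, filters, tools, a replicate block, covariates and leaving out each library.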

Additional observations from a re-analysis of the deposited data

Results flagged for a closer look

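The results here stand out because the change from P9 to P14 differed between libraries labelled IRF8KO and WT libraries by a test of the difference itself (edgeR quasi-likelihood interaction, adjusted p below 0.05). Over all tested genes 3857 did so. Among the genes named in the report 49 did, and 31 of these passed in every fit except those with a covariate. With the share of reads outside genes as a covariate 26 of the 49 passed, and with the neuron list 0. Of the variance of these covariates 82.5% and 93.8% lay between the 6 groups, so neither fit sets its covariate well apart from the groups. Differences below are those of log2 fold changes, IRF8KO minus WT.

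Cell cycle genes were more negative in IRF8KO. The difference was -2.40 for Mcm2, -1.80 for Mcm3, -2.27 for Mcm5, -1.48 for Mcm6, -2.32 for Uhrf1 and -3.67 for Cdca7. It was -2.10 for Birc5, -2.23 for Bub1b, -2.47 for Ube2c, -2.39 for Plk1, -2.96 for Cdca3 and -2.19 for Spc24. Mcm6 was the least stable of these, losing the call in 15 of 22 fits, 10 of them fits without 1 library (adjusted p up to 0.366). Uhrf1 lost it in 5, Spc24 in 4, Plk1 and Bub1b in 3, and Mcm3, Mcm5, Birc5 and Ube2c in 1.

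Other genes that fell in IRF8KO differed by -2.97 (Igfbp4), -4.28 (Hs3st2), -2.27 (Klf2), -2.09 (Cotl1), -1.86 (Coro1a), -1.48 (Flna), -1.42 (Cfl1), -1.30 (Eif4a1) and -1.74 (Ier3). Igfbp4 and Hs3st2 passed in all 22 fits. Klf2 lost the call in 1, Cotl1 in 2, Cfl1 and Eif4a1 in 8, Coro1a in 9, Ier3 in 13 and Flna in 14.

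Genes of neurons, myelin and astrocytes were more positive. The difference was 10.50 for Gria2, 8.09 for Syt1, 7.55 for Rbfox3, 7.997 for Celf4, 12.40 for Snhg11, 9.94 for Meg3, 1.88 for Mbp, 4.65 for Slc1a2, 1.84 for Slc1a3 and 3.25 for Aldoc. It was 3.35 for Malat1, 2.27 for Srrm2 and 8.55 for Pfkp.

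For genes with few or no reads in a group the fitted difference depends on the prior count and sets no bound. Such differences were 14.49 for Gdap1, 14.05 for Itga3, 12.09 for Hipk4, 11.02 for Kndc1, 10.17 for Kcnc1, 9.61 for Cacna1g, 10.24 for Unc13c, 9.25 for Lgi3 and 6.85 for Grin2c. They were 12.47 for Tgfbr3, 11.63 for Tgfb2, 7.76 for Itgb8, 7.33 for Flt3, 4.27 for Mx1 and 5.004 for Sall1. Sall1 lost the call in 14 of 22 fits and Grin2c in 1.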

How the results depend on the processing

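Counts of genes that rose and fell were 3363 and 974. Other fits gave 3692 and 545 (upper-quartile scaling), 4636 and 227 (pan-macrophage scaling), 2408 and 572 (only the groups compared), 2681 and 632 (share of reads outside genes as covariate) and 1477 and 782, 2259 in all (at least 5 CPM in 3 libraries, 11526 genes tested, 65.4% of calls higher against 77.5%). The causes were not tested, except that the last tested fewer genes. Leaving out 1 library of IRF8KO at a time gave 2631 to 3464 higher and 316 to 1399 lower. The lowest count lower was without P9 library 1 (89.9% of calls higher), and fits without P9 library 2 (517), P14 library 1 (523) and P14 library 2 (571) moved it too. Genes whose change differed from WT numbered 3857, and 1689 with the stricter filter, 2438 with the share covariate and 3139 to 4163 over fits without 1 library. Unfiltered, RLE, library-size, DESeq2 and voom fits stayed within 1.5 times the main counts.

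The labels do not say that numbers 1 to 3 pair the samples, and they were not treated as pairs. Same-numbered IRF8KO libraries of the 2 ages deviated from their group means with correlations of -0.03, -0.14 and -0.33. These values cannot show whether such libraries share a litter or a preparation. A replicate block gave 2648 higher and 1747 lower (60.3% of calls higher).

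With the mean of the neuron list as a covariate 0 genes passed, in IRF8KO or in the interaction. Of that covariate's variance 93.8% lay between the 6 groups, so this fit cannot tell it apart from the groups. There Vim (0.71), Spp1 (2.08), Apoe (-1.94), Tmem119 (-1.14), Cx3cr1 (1.23), Aldoc (-1.65), Mbp (-0.40), Srrm2 (-0.11), Tsc22d3 (-0.85), Top2a (1.61), Mki67 (1.88) and Pcna (0.38) turned sign, as did differences from WT for Mcm6 (0.34), Flna (0.82), Aldoc (-2.76), Mbp (-2.66) and Srrm2 (-0.41). Irf8 turned with pan-macrophage scaling (0.16) and, with P2ry12 (-1.86) and the differences of Uhrf1 (0.19) and Ier3 (0.40), with the share covariate (Irf8 0.59). Elsewhere no named gene turned sign. Of 75 named genes called in IRF8KO, 54 kept the call with the share covariate and 68 to 75 in fits without 1 library. The share covariate had 82.5% of its variance between the 6 groups, so fits with it carry much of the same limit. With 10.4 to 14.8 M gene reads, genes at or under the floor of 3 reads in both groups allow no fold.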

Other observations

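Genes known to be induced by glucocorticoids rose in part. The list was chosen after its values were seen, so it is a description. Of 15 tested genes 7 rose and 2 fell, beside 18.4% and 5.32% of all tested genes. The median log2 fold change was 0.02, with 8 estimates above 0 and 7 below. Fkbp5, a chaperone partner of the glucocorticoid receptor, went from 99.6, 81.8 and 103 CPM at P9 to 336, 388 and 150 CPM at P14 in libraries labelled IRF8KO (log2 fold change 1.62 ± 0.36 SE, adjusted p = 0.00321). Sgk1, a kinase of the same response, went from 154, 157 and 147 CPM to 376, 438 and 424 CPM (1.44 ± 0.29, adjusted p = 0.00169), with little spread at either age. In WT it went from 203, 277 and 209 CPM to 1079, 709 and 693 CPM (1.85, adjusted p = 0.00493), and the genotypes did not differ in this rise beyond their error (-0.41, adjusted p = 0.501). Tsc22d3, a leucine zipper protein induced by glucocorticoids, went from 268, 306 and 207 CPM to 404, 530.2 and 898 CPM (1.23 ± 0.35, adjusted p = 0.0162, and 0.0821 without P14 library 3) and rose in WT too (1.30, adjusted p = 0.0434).

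Markers of neurons of several brain regions were higher in the P14 libraries labelled IRF8KO. These lists were also chosen after values were seen, and the source of the transcripts was not tested. Cerebellar granule neuron genes summed to 0.245 to 0.718 CPM at P9 and to 27.5, 37.1 and 96.9 CPM at P14. Genes of forebrain excitatory neurons summed to 2.37 to 4.29 CPM and then to 26.6, 45.8 and 106 CPM, those of Purkinje neurons to 7.32 to 10.6 CPM and then to 26.1, 26.6 and 63.4 CPM, and those of striatal neurons to 1.62 to 2.62 CPM and then to 11.01, 13.3 and 41.9 CPM. In each list every P14 library lay above every P9 library and library 3 was highest. Grin2c, an NMDA receptor subunit of granule neurons, had 1 read in the P9 group and 346 at P14. Olfactory and vomeronasal receptor genes, which microglia are not known to use, summed to 16.6 to 29.6 CPM at P9 and to 30.6 to 53.3 CPM at P14. These sums were scaled by library size alone. WT libraries held 29.3 to 34.2 CPM at P9 and 12.2 to 37.9 CPM at P14.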
